A study of Mus musculus with 3 samples.

Results

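Both arms of miR-21a and of miR-22 were followed in matrix vesicles (MVs), the small membrane vesicles that osteoblasts leave in the extracellular matrix they deposit. The members were chosen by name, as the 4 features mmu-miR-21a-5p, mmu-miR-21a-3p, mmu-miR-22-5p and mmu-miR-22-3p (the prefix mmu, for mouse, is left out below) among the 1079 mouse miRNAs on the array. The main arms, miR-21a-5p and miR-22-3p, had been picked because they were well detected and their signals differed so much between the first isolation of MVs and the others. Their detection and this difference are therefore described here without a test. MVs came from MC3T3-E1 cells, an established osteoblastic line from mouse calvaria. They were released from the matrix with collagenase (500 units/mL) and collected by ultracentrifugation. The methods of the study state that miRNAs were extracted from MVs 3 times independently, and each extraction is called an isolation here. Whether the MVs came from separate cultures is not stated. Isolations are numbered by the sample titles, since the source names of all 3 samples read replicate 1. Total RNA of each isolation (100 ng, dye Cy3) was hybridized to 1 array (n = 3 arrays in 1 group, with no comparison group, the parent cells not being among the arrays used). The sample labels state that the osteogenic medium held β-glycerophosphate, whereas the methods of the study take MVs from cultures without it.

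A miRNA gene is transcribed as a longer RNA that is cut to a hairpin and then to a short duplex of a 5p and a 3p arm. Usually 1 arm is kept by an Argonaute protein and guides it to target mRNAs through its seed, bases 2 to 8, while the other arm is degraded. miR-21 is abundant in many cell types, represses *Pdcd4*, and is known for promoting osteoclast differentiation. miR-22 is broadly expressed, is processed from a non-coding host RNA, and has been linked to osteoblast at the expense of adipocyte differentiation.

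The mature sequences of all members are shown because the array reads each arm with its own feature. They are from RefSeq (GRCm38.p6), with the seed in capitals. 
miR-21a-5p: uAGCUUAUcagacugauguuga
miR-21a-3p: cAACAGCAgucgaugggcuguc
miR-22-5p: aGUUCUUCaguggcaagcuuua
miR-22-3p: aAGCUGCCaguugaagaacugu

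Both genes lie on chromosome 11. miR-21a-5p is at chr11:86584120-86584141 and miR-21a-3p at chr11:86584082-86584103, on the minus strand, within the protein-coding gene *Vmp1*, which runs on the same strand. miR-22-5p is at chr11:75463734-75463755 and miR-22-3p at chr11:75463772-75463793, on the plus strand, within the long non-coding RNA gene *Mir22hg*, also on the same strand. Exons were not annotated in the gene table used here. No other array miRNA among the 868 compared with each member, those with a single mature sequence in the RefSeq table, had the seed of a member. The RefSeq table also holds miR-21c, which was not among these array miRNAs. It has the seed of miR-21a-5p and differs from it by 5 edits (substitutions, insertions or deletions). Whether it adds to the signal of miR-21a-5p was not tested.

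The closest sequences on the array are shown because a near-identical miRNA could share signal with a member. For miR-22-3p it was miR-3966, which differs by 3 edits (substitutions, insertions or deletions), and for miR-21a-5p they were miR-3965 and miR-3967, which differ by 4 edits each.
miR-3966: aGCUGCCAgcuguagaacugu
miR-3965: uGCUUAUCagccugauguu
miR-3967: aGCUUGUCugacugauguug
None of these features was detected in any isolation, although miR-21a-5p and miR-22-3p gave signals up to 204 and 169.8. The other arms, miR-21a-3p and miR-22-5p, were at least 8 edits from every array miRNA compared. miR-590-5p, which is grouped with miR-21 in 1 seed family and had no entry in the RefSeq table, was also undetected in all isolations.

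Of the 4 features, 2 were detected, and both were detected in every isolation. Over all mouse miRNAs, 7.78% were detected in all isolations. This share is given for reference only, as the main arms had been picked as well detected. The signal of miR-21a-5p (total gene signal of the scanner software, linear scale, with the error that the software gives) was 10.1 ± 2.63, 204 ± 18.2 and 166 ± 15.0 in isolations 1, 2 and 3. For miR-22-3p it was 8.80 ± 2.58, 169.8 ± 15.6 and 134 ± 12.5. Both main arms were thus low in isolation 1 and at much higher, similar signals in isolations 2 and 3. The means were 126.8 ± 103 (SD, n = 3) for miR-21a-5p and 104 ± 84.6 (SD, n = 3) for miR-22-3p, so that each SD was nearly as large as its mean.

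**Figure D1:**
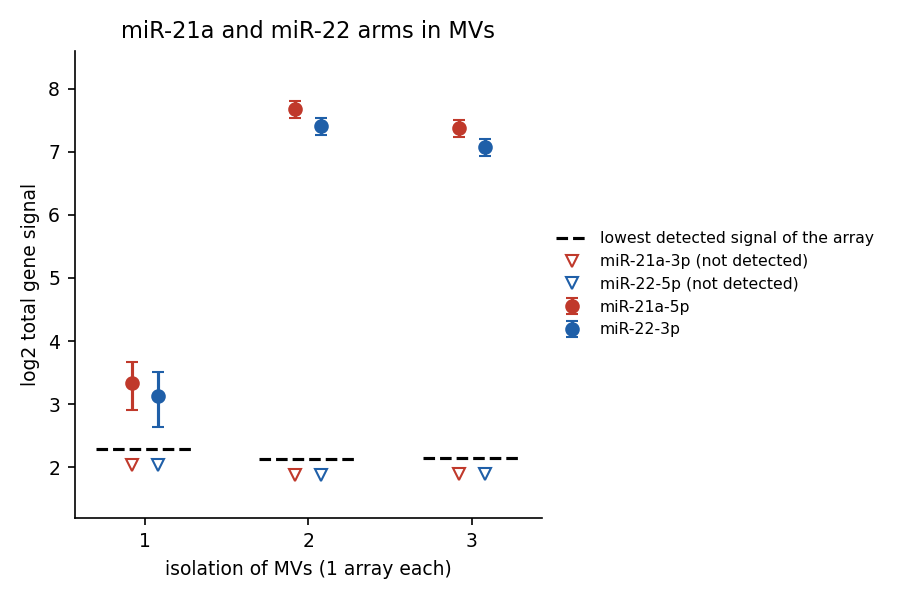
Log2 total gene signal of the main arms in each isolation of MVs (points, with bars of 1 error of the scanner software) and the lowest detected signal of each array (dashed). Open triangles mark miR-21a-3p and miR-22-5p, which were not detected and are drawn just below that limit at no measured level. Before any shift between arrays, miR-21a-5p and miR-22-3p had log2 signals of 3.34 and 3.14 in isolation 1 and of at least 7.07 in the others, a direction that turns when arrays are shifted by the percentile over all mouse miRNAs at their deposited signal.

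On the log2 scale the mean signal was 6.13 ± 2.42 (SD, n = 3) for miR-21a-5p and 5.87 ± 2.37 (SD, n = 3) for miR-22-3p. Normalized values, taken as log2 signals less each array's 90th percentile among the 84 miRNAs that every isolation detected, were -4.73, -1.88 and -1.64 in isolations 1, 2 and 3 for miR-21a-5p (-2.75 ± 1.72, SD, n = 3). For miR-22-3p they were -4.94, -2.15 and -1.94 (-3.01 ± 1.67, SD, n = 3). Isolation 1 stayed the lowest of the isolations on this scale, although not under the shift over all mouse miRNAs described further on, which turns the sign of the difference.

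In isolation 1 the main arms were close to the detection limit. The signal of miR-21a-5p there was 2.08 times the lowest detected signal of the array (4.87) and 3.85 times its own error, and that of miR-22-3p was 1.80 times the lowest signal and 3.41 times its error. Of the 86 miRNAs detected in isolation 1, 8 had a lower ratio of signal to error than miR-22-3p and 17 a lower ratio than miR-21a-5p. In isolations 2 and 3 the ratio of signal to error lay between 10.7 and 11.3 for both.

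By signal, miR-21a-5p took places 68 of 86, 25 of 179 and 25 of 164 among the detected miRNAs of isolations 1, 2 and 3. miR-22-3p took places 75, 27 and 29. These are orders of signals and not of RNA amounts, since probes differ in their response. In isolation 1 the place was poorly resolved, because the signals of 20 other miRNAs lay within 1 error of miR-21a-5p and those of 17 others within 1 error of miR-22-3p. In isolations 2 and 3 this held for 1 to 3 other miRNAs. 

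The miRNAs directly next to the main arms in this order changed from array to array. miR-21a-5p lay below let-7a-5p and above miR-5110 in isolation 1, below miR-468-3p and above let-7a-5p in isolation 2, and below miR-1927 and above miR-504-3p in isolation 3. miR-22-3p lay between miR-199b-5p and miR-1934-3p in isolation 1, between let-7a-5p and let-7i-5p in isolation 2, and between let-7i-5p and miR-500-3p in isolation 3. Of these 12 neighbors, 11 were within 1 error of the main arm beside them, the exception being let-7a-5p above miR-22-3p in isolation 2 (203 ± 16.8). The signal of miR-21a-5p was above that of miR-22-3p in each isolation.

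As a share of the summed signal of all detected miRNAs, miR-21a-5p took 0.0746%, 0.481% and 0.471% in isolations 1, 2 and 3 (0.342% ± 0.232, SD, n = 3). miR-22-3p took 0.0649%, 0.400% and 0.382% (0.282% ± 0.188, SD, n = 3). Both shares were lowest in isolation 1.

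For arm use, miR-21a was represented by its 5p arm and miR-22 by its 3p arm in all 3 isolations. miR-21a-3p and miR-22-5p have only a bound, the lowest detected signal of each array (4.87, 4.39 and 4.41 in isolations 1, 2 and 3). The main arms were at 1.80 and 2.08 times the lowest detected signal in isolation 1 and at 30.5 to 46.6 times in isolations 2 and 3. Because each arm has its own probe, these values give no ratio of the arms.

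Detection of a single arm was usual on these arrays. Among 384 miRNA names with a feature for each arm, 47, 98 and 89 had a detected arm in isolations 1, 2 and 3, and of these 46, 90 and 81 had 1 arm only. Among pairs with an arm at least as bright as miR-22-3p, 10 of 11 in isolation 2 and 12 of 13 in isolation 3, miR-21a and miR-22 included, had 1 detected arm. The exception in both was miR-199a, with signals of 95.8 for the 5p and 268 for the 3p arm in isolation 2.

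**Figure D2:**
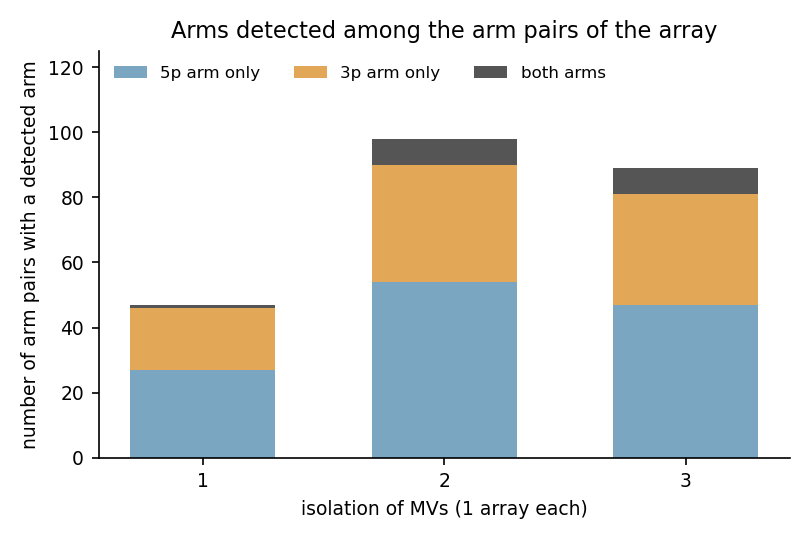
Number of miRNA names with a feature for each arm (384 in all) for which the 5p arm only, the 3p arm only or both arms were detected, by isolation of MVs. Most names with a detected arm had 1 arm only, as did miR-21a (5p) and miR-22 (3p) in every isolation.

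The log2 signal of miR-21a-5p was 4.34 higher in isolation 2 and 4.03 higher in isolation 3 than in isolation 1, and that of miR-22-3p was 4.27 and 3.93 higher, before any shift between arrays and with the exception, given below, of 1 shift that turns the sign. As linear ratios these are 20.2 and 16.4 times for miR-21a-5p and 19.3 and 15.3 times for miR-22-3p. The mean of isolations 2 and 3 exceeded isolation 1 by 4.18 for miR-21a-5p and by 4.10 for miR-22-3p, against a median of 1.12 (SD 1.03 across miRNAs, range -0.13 to 4.32) for the 84 miRNAs detected in all isolations. After normalization the differences were 2.97 and 2.89. They turned to -3.58 and -3.67 when the 90th percentile was taken over all mouse miRNAs with undetected ones at their deposited signal of 0.1. This percentile is then the signal of undetected miRNAs in isolation 1 (-3.32) and of detected ones in isolations 2 and 3 (4.71 and 4.18). Such a shift moves every miRNA of an array alike, so the differences of all 84 miRNAs were then below 0 and kept their order. 

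With the signal in isolation 1 raised by 2 errors and those in isolations 2 and 3 lowered by 2 errors, the difference of the deposited log2 signals was 3.30 for miR-21a-5p and 3.14 for miR-22-3p. The increases of the main arms from isolation 1 differed by 0.07 log2 units in isolation 2 and by 0.10 in isolation 3. Both arms had been picked for a large increase, so this likeness follows in part from the choice.

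In the order of this difference, miR-21a-5p was at place 2 and miR-22-3p at place 3 of the 84 miRNAs. These places were poorly resolved. With either main arm moved by 2 errors as above and all others left unchanged, 6 of the other 83 miRNAs lay above it. miR-199a-3p, from a gene pair with a known role in skeletal cells, was above both (4.32), and let-7a-5p, of the widely expressed let-7 family, was directly below (3.99). let-7c-5p (3.65) and miR-199b-5p (3.59) followed. A log2 difference over 2 was found for 17 of the 84 miRNAs (20.2%), the main arms included. This background is given for reference only, as the members were picked on the same contrast.

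The order is incomplete, because a further 80 miRNAs were detected in isolations 2 and 3 but not in isolation 1 and have only a lower bound. With the lowest detected signal in place of isolation 1, the differences of miR-24-3p, miR-29a-3p and miR-99a-5p were at least 4.50, 4.39 and 4.35, which are above both main arms. That of let-7f-5p was at least 4.18, which is above miR-22-3p and leaves its order against miR-21a-5p unresolved. Among these 164 miRNAs the main arms were then at places 5 and 7 at the highest, since any miRNA with a lower bound under theirs may also lie above them. Conversely, each of the 24 miRNAs brighter than miR-21a-5p in isolation 2, and each of the 26 brighter than miR-22-3p there, was detected in isolation 1.

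To set the main arms beside miRNAs of similar signal, the 20 miRNAs nearest in mean log2 signal of isolations 2 and 3 were taken for each from the 84. For miR-21a-5p (7.52) these ranged from 6.74 to 8.39, and for miR-22-3p (7.24) from 6.59 to 7.85, and 15 of the 20 were common to both. The median difference from isolation 1 was 1.21 for the miRNAs similar to miR-21a-5p and 1.11 for those similar to miR-22-3p. The main arms exceeded it by 2.98 and 2.99, respectively. Within these sets, only miR-199a-3p had a larger difference among those similar to miR-21a-5p, and only miR-21a-5p among those similar to miR-22-3p. Since the 84 leave out miRNAs undetected in isolation 1, neither set could hold miR-24-3p, miR-29a-3p or miR-99a-5p. Their log2 signals were 6.92, 6.79 and 6.83 in isolation 2 and 6.64, 6.56 and 6.45 in isolation 3. Their lower bounds, given above, exceed the differences of both main arms. The medians and excesses hold only for miRNAs detected in all isolations. The excess of miR-22-3p was 1.41 with the 10 nearest miRNAs in place of 20, whereas that of miR-21a-5p was 2.40.

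The miRNAs of similar signal did not spread evenly. Of the 20 around miR-21a-5p, 9 had differences between 2.46 and 4.32 and 11 between -0.13 and 1.30, with none in between. Around miR-22-3p, 7 lay between 2.46 and 4.18 and 13 between -0.13 and 1.30. The former included members of the let-7 and miR-199 families and miR-214-3p, which shares a transcript with miR-199a. The latter included miR-494-3p (149, 228 and 194 in isolations 1, 2 and 3) and miR-2861 (153, 259 and 205). In isolations 2 and 3 these were about as bright as miR-21a-5p, but in isolation 1 they were far brighter.

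**Figure D3:**
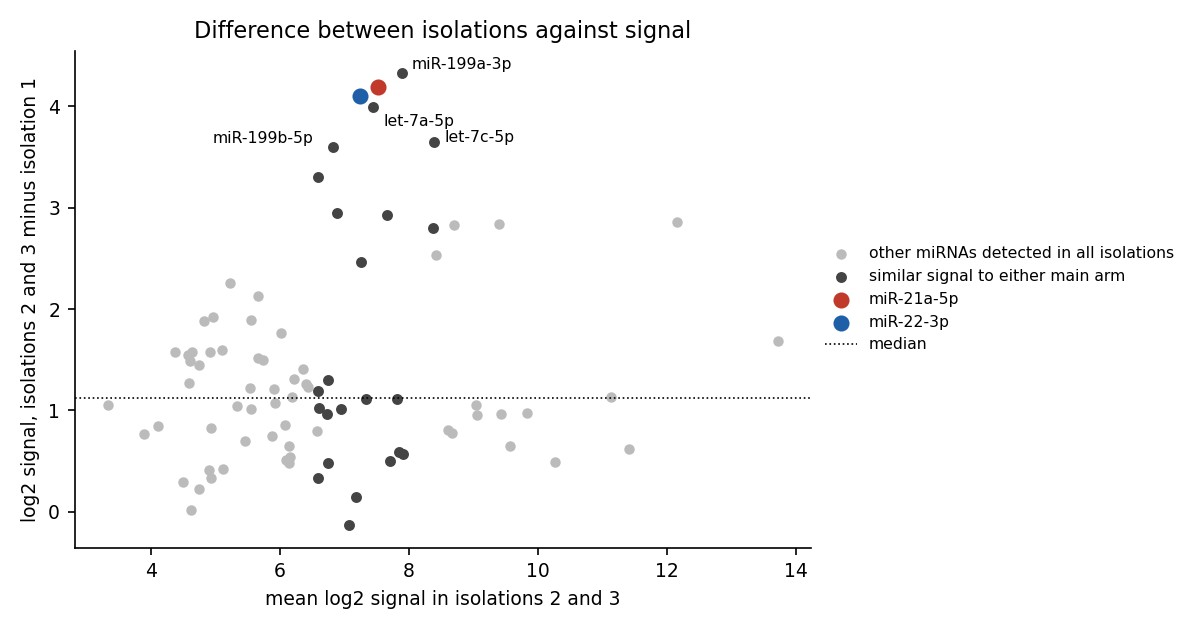
Difference of the deposited log2 signal between isolations 2 and 3 (mean) and isolation 1, against the mean log2 signal in isolations 2 and 3, for the 84 miRNAs detected in all isolations (1 point each). Dark points are the miRNAs of similar signal to either main arm and the dotted line is the median of 1.12. miR-21a-5p (4.18) and miR-22-3p (4.10) lie at the top with miR-199a-3p and let-7a-5p. With the shift over all mouse miRNAs at their deposited signal the differences of all 84 miRNAs are below 0, in the same order.

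In contrast, isolations 2 and 3, which the choice of the members had not set against each other, differed little for the main arms. Isolation 3 was lower by 0.30 log2 units for miR-21a-5p and by 0.34 for miR-22-3p, against a median of -0.36 (SD 0.36) for the 84 miRNAs. Of the other 83 miRNAs, 51 had a lower value than miR-21a-5p and 45 a lower value than miR-22-3p. Among the 20 of similar signal these counts were 14 and 10. The main arms thus lay near the middle of the arrays here, in the same 2 isolations where their signals were far above that of isolation 1.

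The patterns most like those of the main arms were compared by the Euclidean distance between log2 signals of the 3 arrays, each miRNA centered on its own mean. Of 83 miRNAs, miR-22-3p was nearest to miR-21a-5p, at 0.07 log2 units, and the reverse also held. The next 4 were the same miRNAs for both, namely miR-199a-3p (0.12 from miR-21a-5p and 0.18 from miR-22-3p), let-7a-5p (0.19 and 0.12), let-7c-5p (0.44 and 0.37) and miR-199b-5p (0.49 and 0.42). The median distance over all 83 was 2.53 from miR-21a-5p and 2.46 from miR-22-3p. Each distance rests on 3 values per miRNA. Both main arms had been picked for a large difference between isolations, which also enters this distance, so their nearness follows at least in part from that choice. The 4 miRNAs that came next likewise had large differences, from 3.59 (miR-199b-5p) to 4.32 (miR-199a-3p). A likeness of the main arms apart from this difference was not tested by these distances.

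The signals of miR-199a-3p were 11.8 ± 2.70, 268 ± 21.1 and 210.0 ± 16.8 (scanner error) in isolations 1, 2 and 3. Those of let-7a-5p were 10.9 ± 2.66, 203 ± 16.8 and 149 ± 12.6. In isolation 1 both were within 1 error of miR-21a-5p (10.1 ± 2.63). In isolations 2 and 3 miR-199a-3p was brighter than miR-21a-5p (204 ± 18.2 and 166 ± 15.0) by more than 1 error. let-7a-5p was within 1 error of miR-21a-5p in isolation 2 and somewhat below it in isolation 3. let-7c-5p was brighter than miR-21a-5p in every isolation (26.6 ± 3.61, 373 ± 31.6 and 300.1 ± 26.1).

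The sequences of the miRNAs that moved alike are given beside those of miR-494-3p and miR-2861, which were chosen after their values were seen. All are from RefSeq (GRCm38.p6), with the seed in capitals.
miR-199a-3p: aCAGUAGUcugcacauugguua
let-7a-5p: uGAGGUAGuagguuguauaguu
let-7c-5p: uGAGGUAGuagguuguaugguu
miR-494-3p: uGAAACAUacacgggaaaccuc
miR-2861: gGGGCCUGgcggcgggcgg
let-7a-5p and let-7c-5p share a seed, which none of the others nor any of the members has. GC content was 36.4% for miR-21a-5p and 45.5% for miR-22-3p, between 36.4% and 40.9% for miR-199a-3p, let-7a-5p and let-7c-5p, 45.5% for miR-494-3p and 94.7% for miR-2861. Over all 84 miRNAs a check against GC content was void, as the RefSeq table held a single mature sequence for 66.7% of them.

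**Figure D4:**
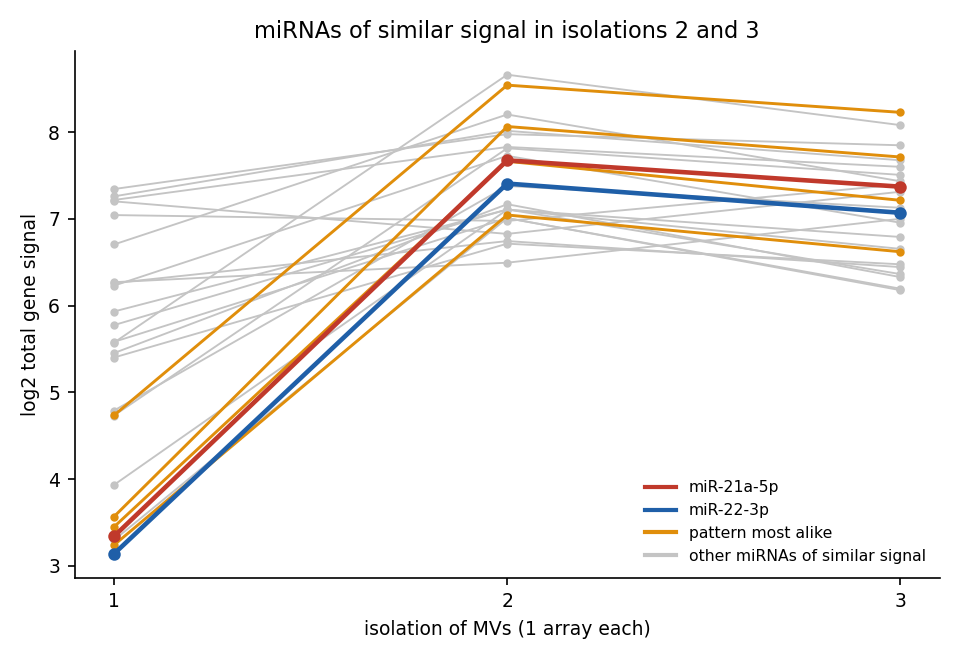
Log2 total gene signal (no shift between arrays) in each isolation of MVs for miR-21a-5p (red), miR-22-3p (blue), the miRNAs with the pattern most alike (orange) and the other miRNAs of similar signal in isolations 2 and 3 (gray). Lines join the values of 1 miRNA and imply no order of the isolations. The main arms and those most alike lie between 3.14 and 4.73 in isolation 1, below most miRNAs of similar signal. The order within an isolation is the same under any shift of the arrays. With the shift over all mouse miRNAs at their deposited signal, the difference of isolations 2 and 3 from isolation 1 is below 0 for every miRNA shown.

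Other miRNAs with a known role in bone were examined from lists. Of 26 miRNAs known as regulators of osteoblast differentiation, 3, 16 and 15 were found in isolations 1, 2 and 3, beside 7.97%, 16.6% and 15.2% of all mouse miRNAs. miR-199a-3p, miR-206-3p and miR-214-3p were detected in all isolations, with differences of 4.32, 1.89 and 2.95. A further 12 were missed in isolation 1 alone, with differences of at least 0.86 for miR-34c-5p and up to at least 4.50 for miR-24-3p. A difference or lower bound over 2 was found for 9 of the 15 detected in isolations 2 and 3, beside 29.3% of all 164.

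Of 16 miRNAs known to act on osteoclasts, 2, 9 and 8 were found in the respective isolations, beside the same 7.97%, 16.6% and 15.2%. miR-125b-5p (47.6, 405 and 271) and miR-214-3p (15.3, 138 and 101) were those detected in all, with differences of 2.80 and 2.95. Of the 8 detected in isolations 2 and 3, 6 had a difference or lower bound over 2, beside 29.3% of all 164. miR-155-5p and miR-223-3p, both typical of immune cells, were among the 7 that were not detected at all. miR-16-5p, often used as a reference miRNA, was not detected in isolation 1 and gave 25.0 and 20.9 in isolations 2 and 3, a difference of at least 2.23.

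Marker miRNAs of cell types were examined as well, beside the 7.97%, 16.6% and 15.2% of all mouse miRNAs detected in isolations 1, 2 and 3. Of 6 mesenchymal markers, miR-125b-5p, miR-199a-3p and miR-214-3p were detected in all isolations and miR-199a-5p in isolations 2 and 3, while miR-143-3p and miR-145a-5p were not detected. The summed signal of this list was 74.7, 907 and 650 in isolations 1, 2 and 3, so that it was lowest in the isolation in which the main arms were low. Most of the 84 miRNAs detected in all isolations were also lower there, with a median difference of 1.12. miR-199a-5p, undetected in isolation 1, added nothing to the sum there. The part of this list in the difference of the main arms was not tested. None of 3 leukocyte, 2 red blood cell, 1 liver and 2 neuron markers was detected in any isolation. With so few markers and these low shares over all mouse miRNAs, this does not show that other cell types were absent. Of 3 muscle markers only miR-206-3p was detected (7.71, 37.4 and 21.7), and of 2 embryonic stem cell markers on the array only miR-294-3p, in isolations 2 and 3 (32.5 and 11.7).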

How the data were processed

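For each array the authors deposited a table of intensity values, the total gene signal on a linear scale with its error and a detection call, made with Agilent Feature Extraction 10.10.1.1 per the labels. These values carry no normalization between arrays. Features called undetected hold 0.1 as signal and 1 as error. No level is known below the lowest detected signal of an array, and the number of arrays limits precision. The study's note names a shift by the 90th percentile. This was taken here over the 84 miRNAs detected on all arrays, because over all 1079 mouse miRNAs it falls on undetected ones in isolation 1. The values here are thus not on the scale of the study. Of the settings run, the shift over all 1079 with undetected ones at the deposited signal came nearest to the study's normalized value for miR-21a-5p. Signals before the shift are printed first. Detection follows the deposited call. Control features and 57 viral features were left out. The members, lists and alternatives were chosen with earlier results of these data known. The genes named are all member features, miRNAs measured by PCR in the study, the 5 patterns most alike, the neighbors by signal and by difference, close sequences, and lists of bone miRNAs and cell type markers. No groups were compared and no test was run. Mature sequences of 869 of the 1079 miRNAs were matched by name to RefSeq (GRCm38.p6), whose assembly need not be that of the array design. The alternatives were other percentiles and reference features, quantile normalization, no shift, other detection rules, other numbers of similar miRNAs and each isolation left out. Functions were tested on simulated data. Python 3.11.15, numpy 2.4.6, pandas 2.3.3, scipy 1.17.1 and matplotlib 3.10.9 were used.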

Additional observations from a re-analysis of the deposited data

How the results depend on the processing

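The normalized values of miR-21a-5p (-2.75) and miR-22-3p (-3.01) moved with the zero of the scale. They were 6.13 and 5.87 with no shift, 6.14 and 5.86 with quantile normalization, and 0.29 and 0.037 with the median over the shared miRNAs. When the 90th percentile was taken across every mouse miRNA they were 2.40 and 2.15 with undetected miRNAs at the lowest detected signal, and 4.27 and 4.01 with these at the deposited signal. Among all these settings, the 4.27 of miR-21a-5p lies nearest to the normalized value that the study printed for it. With each isolation left out the main normalized values ranged from -3.31 to -1.76 and from -3.54 to -2.05. The differences between isolations 2 and 3 and isolation 1 (2.97 and 2.89) were 4.18 and 4.10 with no shift, 2.72 and 2.64 with the 75th percentile, 2.76 and 2.68 with the median, 2.50 and 2.54 with quantile normalization, and 2.02 and 1.94 with the percentile over all mouse miRNAs and undetected ones at the lowest detected signal. They reversed to -3.58 and -3.67 with undetected miRNAs at the deposited signal, where the percentile of isolation 1 is that of an undetected miRNA. The differences of all shared miRNAs were below 0 in that setting. With isolation 2 or 3 left out the difference was 2.85 to 3.09 for miR-21a-5p and 2.79 to 2.99 for miR-22-3p. The excess over miRNAs of similar signal (2.98 and 2.99) was 2.40 and 1.41 with the 10 nearest miRNAs and 2.45 and 2.36 with matching on isolation 1, and ranged from 2.74 to 2.82 and from 2.68 to 2.89 with isolation 2 or 3 left out. The cause was not tested. The place by difference (2 and 3) became 3 and 2 with quantile normalization and 5 and 7, at the highest, over the miRNAs detected in isolations 2 and 3, many of which have only a lower bound. The place by mean signal over the shared miRNAs (36 and 46) was 24 and 28 without isolation 1 and 50 and 52 without isolation 3. The mean share of the signal (0.342% and 0.282%) was 0.476% and 0.391% without isolation 1. The number of member features detected in all isolations was 2 under every alternative run for it, but the main arms had been picked as well detected. In all, 55 of 86 alternative values of 13 results moved by less than the spread between isolations or, for counts, by no more than 1.5 times. For the place by difference the limit was 0.5 places. The low signals of isolation 1 widen this spread for normalized values, shares and places by signal. Leaving out 1 isolation cannot move a mean of normalized values or shares by that much. The count thus says little about how stable these results are. The planned correlation with GC content was not run, since too few miRNAs had a mature sequence. No paired analysis was possible because there is only 1 group of arrays. Signals under the detection limit have no measured level, which limits isolation 1 most.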
